A study of Rattus norvegicus with 20 samples.

Results

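Subcutaneous fat of resveratrol-treated rats was set against that of lean control rats. The comparison took the 5 arrays whose titles name resveratrol and the 5 whose titles name lean controls, 10 of the 20 arrays of the study, and every difference is resveratrol minus lean. All rats were male ZDF rats of the Zucker strain, a line in which animals homozygous for a defect of the leptin receptor become obese and diabetic. The other 10 arrays came from rosiglitazone-treated rats (5) and obese rats (5), and they entered the fit so that the groups shared an estimate of the spread. The lean controls ate a standard chow and the obese rats a stock diet for 6 weeks. For the resveratrol and rosiglitazone rats the labels give no dose, route, length of treatment, age or diet, and they do not say whether these rats were lean or obese. Genotype, diet and treatment can therefore not be told apart in this comparison.

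White fat stores triglyceride in adipocytes, which also secrete hormones such as leptin and adiponectin. Between the adipocytes lie fibroblasts, vessels and macrophages, and in obesity macrophages gather around adipocytes and take up their lipid through lysosomes. Resveratrol is a plant polyphenol studied for its effects on sirtuins, AMP-activated kinase and insulin sensitivity, and rosiglitazone activates PPAR gamma, the main regulator of adipocyte genes.

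The array reports 36685 transcript clusters, each the set of probes for 1 locus, as log2 values between -0.16 and 12.5. Of these, 14824 carried 1 gene symbol, 829 carried several, and 21032 had no gene named here. Defining adipocyte genes were present in both groups: Adipoq (adiponectin) averaged 10.80 with resveratrol and 10.79 in lean fat, and Fabp4, a fatty acid carrier, averaged 11.17 with resveratrol and 11.23 in lean fat (n = 5 each). The values within an array had an SD of 1.91 ± 0.011 with resveratrol and 1.89 ± 0.045 in lean fat (n = 5 each), a difference of 0.024 (two-sided exact permutation p = 0.325, smallest possible 0.00794). The median of an array was 2.51 ± 0.014 with resveratrol and 2.57 ± 0.066 in lean fat (exact permutation p = 0.0556, 0.111 after adjustment over both measures). By label the samples of a group are biological replicates, and the p-values measure the spread between these samples. For the limma p-values below, this spread is shared by the 4 groups. The median SD of a cluster was 0.22 with resveratrol, 0.27 in lean, 0.36 in obese and 0.23 in rosiglitazone fat. Some called genes varied far more in lean fat, such as Cntn1 (SD 1.58, against 0.49 with resveratrol). For these the shared spread understates that of the lean arrays.

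One lean array closely resembled the resveratrol arrays. Lean 2 correlated with the 5 resveratrol arrays at r between 0.975 and 0.979 over all clusters, and with the other lean arrays at r between 0.924 and 0.969. The resveratrol arrays correlated with each other at r between 0.968 and 0.976, and the other 4 lean arrays correlated with the resveratrol arrays at r between 0.905 and 0.961. Among themselves, lean 1, lean 3, lean 4 and lean 5 correlated at r between 0.925 and 0.976, so lean 2 was not unusually far from its group. Lean 2 thus lay as near to the resveratrol arrays as they lay to one another. Its label was kept, and the results are given with and without it. Lean 2 was singled out from these same values, and leaving out the lean array most like resveratrol tends to widen the differences. Fits without it show how far a result hangs on this array and are not separate support. Lean 3, lean 4 and lean 5 differed from lean 1 and lean 2 in another way: they carried high values of mammary epithelium genes, described below.

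**Figure D1:**
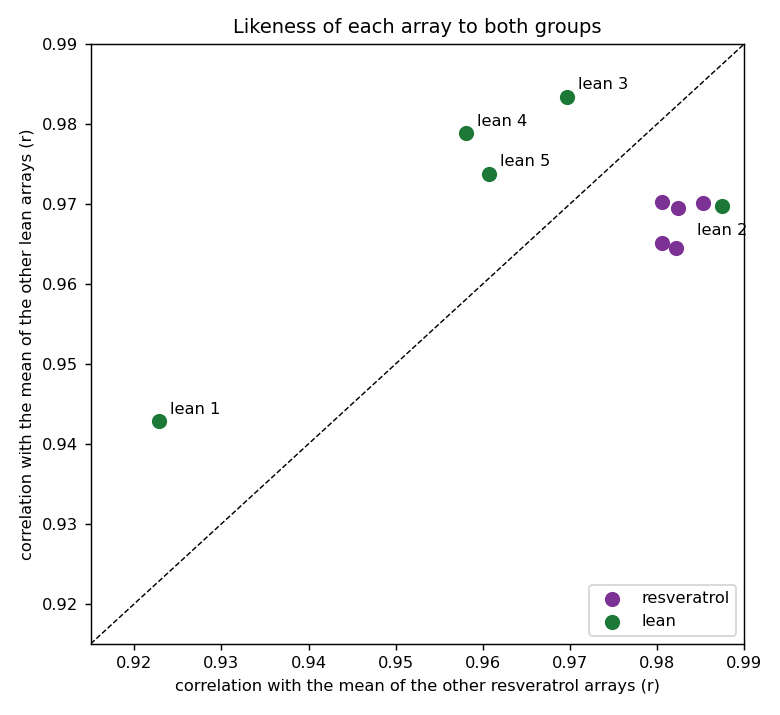
Each point is an array; the x axis gives its correlation (r, over 36685 clusters) with the mean of the other resveratrol arrays and the y axis its correlation with the mean of the other lean arrays, with equality dashed. Lean 2 lies beside the resveratrol arrays at 0.987 and 0.970, whereas the other 4 lean arrays lie above the line, with lean 1 lowest at 0.923 and 0.943.

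In subcutaneous fat of resveratrol rats, genes that rose included the macrophage genes Cd68 and Gpnmb, the lysosomal protease Lgmn and the cholesterol synthesis gene Dhcr7. Genes that fell included Gprin3, Alb, Acvr1c and Cfd. Obese fat averaged 6.36 for Cd68, 7.97 for Gpnmb, 2.98 for Gprin3, 4.26 for Alb and 5.53 for Acvr1c. The resveratrol means were near these, at 6.69, 7.79, 3.11, 4.40 and 5.62. For Lgmn, Dhcr7 and Cfd obese fat lay between the lean and resveratrol means, at 7.21, 4.94 and 8.13. Means of obese fat thus differed from lean fat in the same direction for all of these genes. Part of this was set in advance, since the genes were picked for their difference from the same lean arrays. It did not hold for every called gene: Orai2 rose to 4.64 with resveratrol, against 3.83 in obese and 3.87 in lean fat. With the limma fit over all 20 arrays, 106 of 36685 clusters (0.289%) were called at an adjusted p under 0.05, of which 70 (0.191%) rose and 36 (0.0981%) fell with resveratrol. Of the 70 that rose, 49 had 1 gene symbol, as did 17 of the 36 that fell, and the other 40 called clusters are counted but not named. The rises ran from 1.53-fold to 6.38-fold and the falls from 1.47-fold to 7.74-fold. The change reached 2-fold in 52 of the rises and in 22 of the falls. The arrays of the groups did not overlap in 39 of the 70 clusters that rose and in 29 of the 36 that fell, and over all clusters they did not overlap in 3.34%. The median log2 difference over all clusters was 0.02, and it varied with level, from -0.06 in the fifth of 10 equal bins of mean level to 0.13 and 0.15 in the brightest bins.

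These calls lay close to the threshold, with adjusted p between 0.0391 and 0.0499. Lean 2 was the lean array nearest to the resveratrol mean in 92 of the 106 called clusters. Without lean 2, 1051 clusters were called (2.86%), of which 771 (2.10%) rose and 280 (0.763%) fell. All 106 were among them. Leaving out lean 1, lean 3, lean 4, any resveratrol array or rosiglitazone 5 left 0 calls, with 3851 to 4781 clusters at an unadjusted p under 0.05, against 4943 with every array. Without lean 5, 4 were called. A fit of the resveratrol and lean arrays alone also called 0 (lowest adjusted p 0.0997, 5920 clusters at an unadjusted p under 0.05), as did centring each array on its median (lowest adjusted p 0.0590, 5207 clusters).

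**Figure D2:**
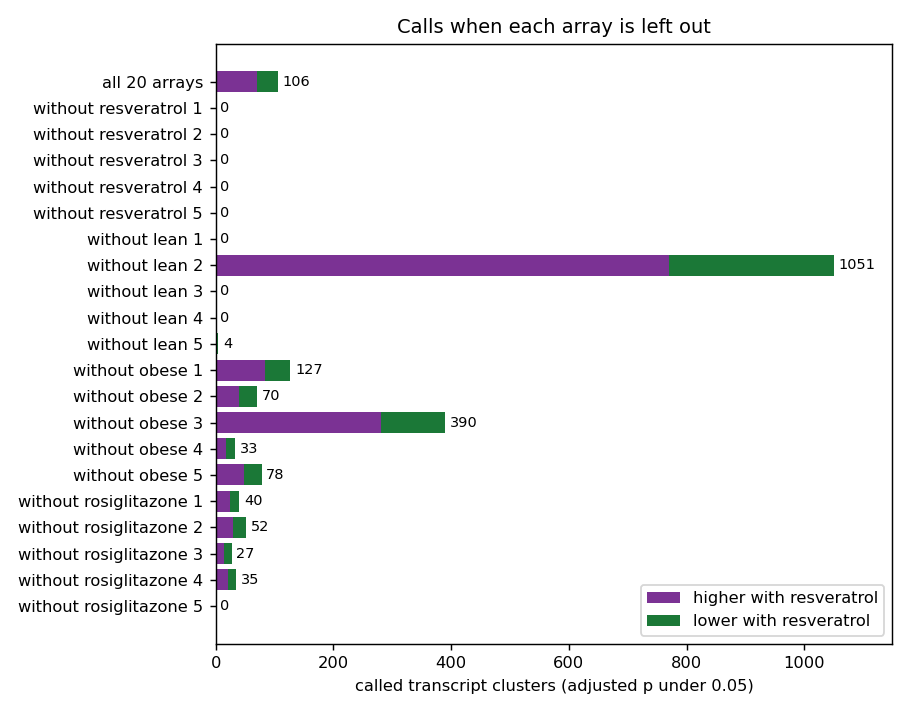
Bars give the number of clusters called between resveratrol and lean fat (x axis) with every array and with each array left out in turn (y axis), split into those higher and lower with resveratrol. The count is 106 with every array, 1051 without lean 2, and 0 without any 1 resveratrol array.

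**Figure D3:**
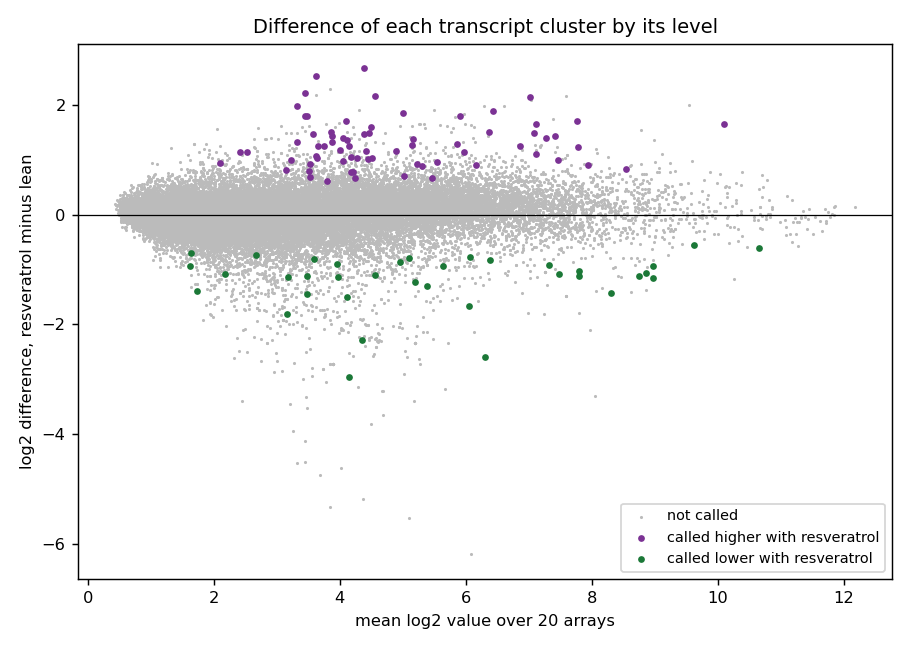
Each point is a cluster, with its mean log2 value over 20 arrays on the x axis and its log2 difference, resveratrol minus lean, on the y axis. Called clusters lie on both sides of 0, and the long tail of uncalled clusters below -2 includes the caseins Csn2 and Csn3.

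Of 16 macrophage markers, 12 were measured. Of these 2 rose (Cd68 and Gpnmb), where 0.191% of all clusters rose, and none fell. All 12 log2 differences were above 0, with a median of 0.97. At an unadjusted p under 0.05, 10 of the 12 were higher, against 7.93% of all clusters. These 12 lay above the median level of all clusters, where log2 differences ran higher (median 0.072, against 0.02 over all clusters). Bulk values cannot tell more cells of a type from more RNA per cell. Cd68, a glycoprotein of macrophage lysosomes, read 6.01, 7.14, 6.87, 6.54 and 6.89 in the 5 resveratrol arrays, against 4.25, 6.15, 4.88, 4.43 and 4.74 in the 5 lean arrays. Lean 2, at 6.15, exceeded resveratrol 1, and the other lean arrays lay below every resveratrol array. Cd68 rose 3.48-fold, with a log2 difference of 1.80 (SE 0.32, limma adjusted p = 0.0391), and the fold was 4.33 without lean 2 (adjusted p = 0.000358).

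Gpnmb, a transmembrane glycoprotein of lipid-laden macrophages, read 6.93, 8.19, 8.19, 7.62 and 8.02 with resveratrol, against 4.25, 7.15, 5.98, 5.52 and 5.31 in lean fat. As with Cd68, only lean 2 among the lean arrays reached the resveratrol range. Gpnmb rose 4.44-fold, with a log2 difference of 2.15 (SE 0.41, limma adjusted p = 0.0391). Lyz2, the lysozyme of macrophages, read 8.97, 9.69, 9.65, 9.14 and 9.35 with resveratrol, against 7.05, 9.21, 7.81, 7.35 and 7.67 in lean fat, a log2 difference of 1.54 that missed the threshold (adjusted p = 0.0575, and 0.00127 without lean 2). Lean 2 lay within the resveratrol range and the other lean arrays below it. Trem2 (lipid-sensing receptor), Itgax (integrin CD11c) and Csf1r (receptor of the macrophage growth factor) had log2 differences of 1.17, 0.98 and 0.95, none past the threshold. Without lean 2, 10 of the 12 markers were called higher, where 2.10% of all clusters were, and C1qa and Adgre1 were not.

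Cd4 is a co-receptor of helper T cells that rat macrophages also carry. It read 8.09, 8.86, 8.73, 8.59 and 8.46 with resveratrol, against 6.05, 8.31, 6.99, 6.30 and 6.53 in lean fat, so that 4 of 5 lean arrays lay below every resveratrol array. Cd4 rose 3.27-fold, with a log2 difference of 1.71 (SE 0.32, limma adjusted p = 0.0391). The other 7 measured members of the T and B cell list, of 13 listed, were not called, and Cd3e, of the T cell receptor complex, averaged 1.34 with resveratrol and 1.52 in lean fat. The median log2 difference of that list was -0.15. Only 1 of its 8 measured members lay above the median level of all clusters, so the lack of other calls says little about T and B cells. Of 13 inflammatory mediators, 11 were measured and 0 were called, where 0.289% of all clusters were. At an unadjusted p under 0.05, 1 was higher and 2 were lower, against 7.93% and 5.55% of all clusters, and their median log2 difference was -0.03. Tnf averaged 2.53 with resveratrol and 2.56 in lean fat.

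Olr1, the scavenger receptor for oxidised LDL, read 3.03, 4.30, 4.51, 4.52 and 3.60 with resveratrol, against 1.62, 2.72, 1.64, 1.44 and 1.46 in lean fat, and the groups did not overlap. It rose, with a log2 difference of 2.22 (SE 0.44, limma adjusted p = 0.0426). The deposited values carry no detection call, so no fold is given where the dimmer group averaged below the median level of all clusters (2.55), as here, and the log2 difference is that of the deposited values. The chemokine Ccl9, named after its values were seen, read 3.65, 5.43, 5.06, 4.30 and 4.58 with resveratrol, against 1.59, 3.76, 1.56, 1.92 and 1.47 in lean fat. Lean 2 again lay apart from the other lean arrays, just above resveratrol 1, and Ccl9 rose with a log2 difference of 2.54 (adjusted p = 0.0426). Tbxas1, thromboxane synthase of macrophages and platelets, rose 2.23-fold with no overlap (adjusted p = 0.0487). Dapp1, an adaptor of phosphoinositide signalling in leukocytes, rose 2.69-fold (adjusted p = 0.0426).

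The promoters of Gpnmb, Cd68 and Olr1 are shown because each of these called genes holds, in the 250 bases before its start, the AP-1 motif TGANTCA, the site of Fos and Jun proteins. Sequences are from RefSeq (GRCr8), run 5′ to 3′ on the gene's strand, and the capitals mark the motif. They lie at chr4:79340878-79341127 (plus strand), chr10:54882442-54882691 (minus strand) and chr4:164634548-164634797 (minus strand).

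Gpnmb: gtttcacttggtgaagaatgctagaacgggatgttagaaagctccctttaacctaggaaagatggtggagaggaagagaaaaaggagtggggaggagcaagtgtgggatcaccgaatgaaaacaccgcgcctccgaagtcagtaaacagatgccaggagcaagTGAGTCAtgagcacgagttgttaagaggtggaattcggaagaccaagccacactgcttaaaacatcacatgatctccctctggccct

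Cd68: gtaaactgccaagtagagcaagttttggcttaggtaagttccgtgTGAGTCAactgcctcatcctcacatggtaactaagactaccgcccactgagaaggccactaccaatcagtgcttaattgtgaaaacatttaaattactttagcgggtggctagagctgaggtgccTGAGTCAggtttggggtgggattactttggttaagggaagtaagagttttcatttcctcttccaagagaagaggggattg

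Olr1: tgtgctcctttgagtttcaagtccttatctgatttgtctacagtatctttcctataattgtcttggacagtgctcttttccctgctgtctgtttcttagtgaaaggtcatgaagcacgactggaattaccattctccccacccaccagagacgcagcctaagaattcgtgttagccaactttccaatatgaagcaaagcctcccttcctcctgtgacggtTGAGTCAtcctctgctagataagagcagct

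The first base of the motif lay 87 bases before the start in Gpnmb, 205 and 80 bases in Cd68, and 30 bases in Olr1. Searched on both strands, TGANTCA occurred in 7 of the 40 genes that rose and have a promoter in the RefSeq table (Atosb, Cd68, Dhrs9, Gpnmb, Olr1, Sgcb and Tbxas1), in 2 of 17 that fell, and in 6.34% of all 33469 promoters. The motif to show was picked after the matches were seen. CACGTG, the E-box, was in 6 that rose and 1 that fell (5.59% of all), and TGACNNNGC, the core of the antioxidant response element, in 3 that rose and 2 that fell (10.1% of all). GAGGAAGT, bound by PU.1, was in 3 that rose and 0 that fell (2.04% of all). TCACNCCAC, the core of the sterol response element, was in 0 of either group (0.974% of all). A match only describes these letters.

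Of 24 lysosomal genes, a list made after the values were seen, 16 were measured, 2 rose (Lgmn and Clcn6; 0.191% of all clusters rose) and none fell, with a median log2 difference of 0.41. Legumain (Lgmn), a lysosomal protease, read 7.84, 8.30, 7.91, 8.21 and 7.97 with resveratrol, against 5.75, 7.70, 6.68, 6.26 and 6.65 in lean fat, with no overlap. Lean 2 was the highest lean array by a wide margin. Lgmn rose 2.71-fold, with a log2 difference of 1.44 (SE 0.29, limma adjusted p = 0.0450). Clcn6, a chloride and proton exchanger of late endosomes, had 2 clusters on the array, of which the brighter rose 1.64-fold (adjusted p = 0.0426) and the other differed by 0.48 and was not called (adjusted p = 0.246). Npc1, which exports cholesterol from lysosomes, and Gla, alpha-galactosidase, had log2 differences of 0.75 and 0.64 and were not called with all arrays, but were without lean 2 (adjusted p = 0.0294 and 0.00810).

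Of 23 cholesterol synthesis genes, also listed after the values were seen, 15 were measured. Of these 3 rose (Dhcr7, Nsdhl and Sc5d), where 0.191% of all clusters rose, none fell, and the median log2 difference was 0.59. Dhcr7, the last enzyme of the pathway, read 5.51, 5.35, 6.12, 5.60 and 5.44 with resveratrol, against 3.51, 5.39, 4.10, 4.46 and 3.67 in lean fat. Lean 2 lay inside the resveratrol range and the other 4 lean arrays below it. Dhcr7 rose 2.60-fold, with a log2 difference of 1.38 (SE 0.25, limma adjusted p = 0.0391). Nsdhl, a sterol dehydrogenase, read 4.89, 4.96, 4.80, 4.73 and 4.47 with resveratrol, against 3.19, 4.43, 3.62, 3.61 and 3.96 in lean fat, and rose 2.01-fold (adjusted p = 0.0487). Sc5d, a sterol desaturase, read 5.35, 5.69, 5.46, 5.62 and 5.58 with resveratrol, against 4.01, 5.19, 4.39, 4.99 and 4.64 in lean fat, and rose 1.86-fold (adjusted p = 0.0498). Neither gene overlapped between groups. Insig1, which holds back the sterol sensor, and Srebf2, the regulator of the pathway, had log2 differences of 1.20 and 0.59 (adjusted p = 0.0591 and 0.0844). Without lean 2, 8 of the 15 were called higher, where 2.10% of all clusters were.

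**Figure D4:**
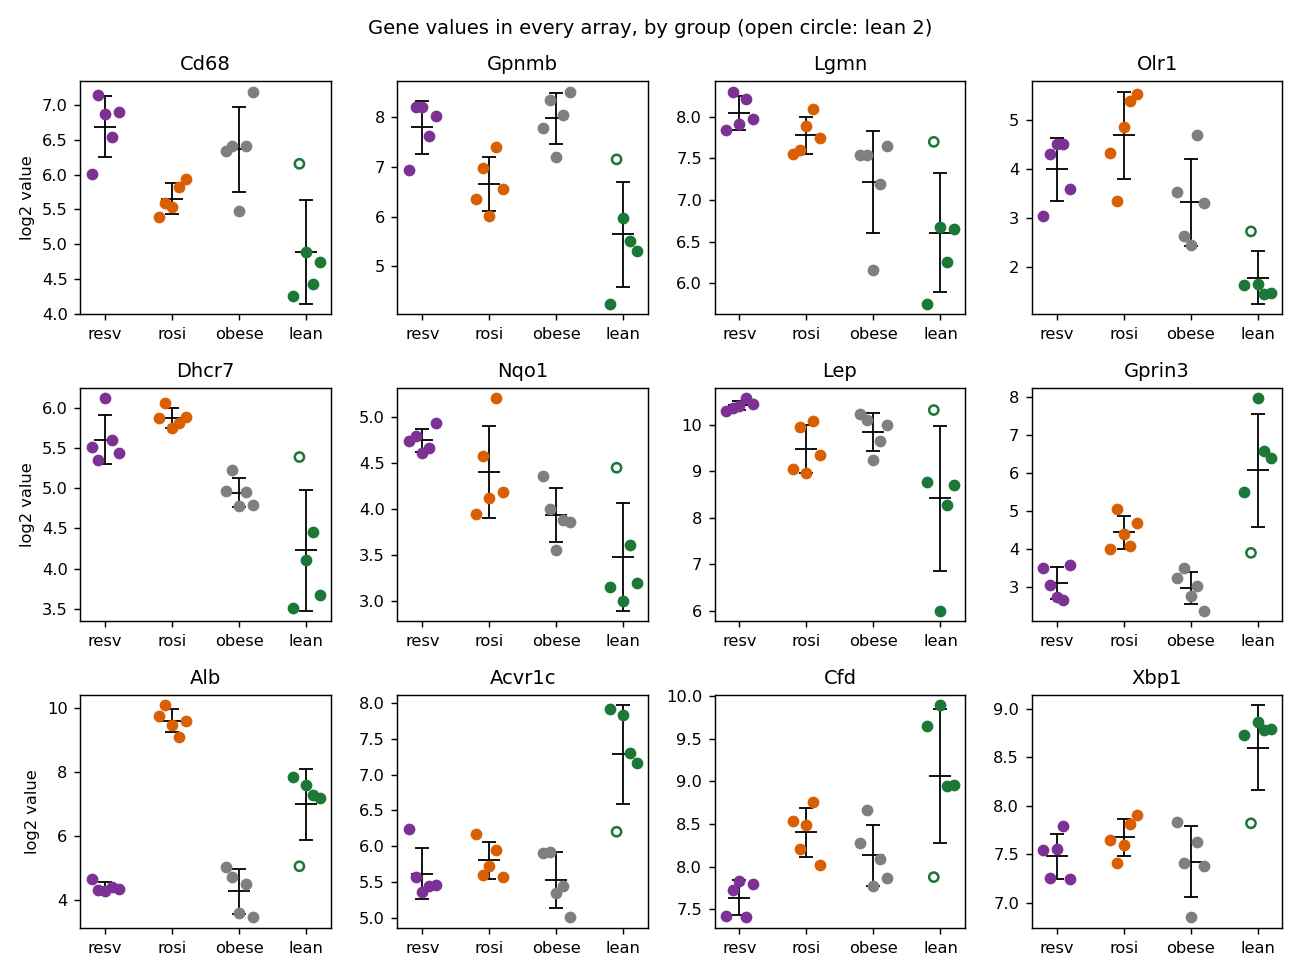
Log2 value (y axis) of 12 genes in every array of the resveratrol (resv), rosiglitazone (rosi), obese and lean groups; bars give mean and SD (n = 5), and the open circle is lean 2. Lean 2 lies on the resveratrol side of the other lean arrays in each of the 12 panels, and Alb is above 9 in every rosiglitazone array.

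Among the sirtuin and AMP-activated kinase genes, 12 of 14 were measured and 1 rose, where 0.191% of all clusters rose. Nqo1, a quinone reductase under control of the oxidant sensor NRF2, read 4.74, 4.79, 4.61, 4.66 and 4.93 with resveratrol, against 3.15, 4.45, 3.01, 3.62 and 3.20 in lean fat, with no overlap. The 5 resveratrol arrays lay within a narrow range, and lean 2 was the nearest lean array to them. Nqo1 rose 2.40-fold, with a log2 difference of 1.26 (SE 0.25, limma adjusted p = 0.0426). Hmox1, heme oxygenase and another NRF2 target, had a log2 difference of 1.28 that missed the threshold (adjusted p = 0.316). The deacetylases Sirt3 and Sirt6 and the kinase subunits Prkaa1 and Prkaa2 had log2 differences of 0.09, 0.21, -0.01 and 0.64, none called. The median of the list was 0.14.

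Most adipocyte genes were not called, and those that differed most were leptin, adipsin and Cidea. Of 17 adipocyte genes, 14 were measured. Of these 0 rose and 1 fell, where 0.191% and 0.0981% of all clusters did, and the median log2 difference was 0.04. Of 7 adipocyte markers 5 were measured, with a median of 0.08. The differences of Adipoq, Fabp4, Lpl (lipoprotein lipase) and Cd36 (fatty acid uptake) lay between -0.05 and 0.07. Cfd, the adipocyte protease adipsin, read 7.43, 7.72, 7.83, 7.41 and 7.80 with resveratrol, against 9.65, 7.88, 9.89, 8.94 and 8.96 in lean fat. Lean 2 was just above the highest resveratrol array, and the other lean arrays were higher by over 1 log2 unit. Cfd fell 2.69-fold, with a log2 difference of -1.43 (SE 0.28, limma adjusted p = 0.0426).

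Leptin (Lep), the satiety hormone, read 10.30, 10.37, 10.41, 10.57 and 10.45 with resveratrol, against 8.77, 10.32, 6.0, 8.28 and 8.71 in lean fat. The resveratrol arrays lay close together, lean 2 lay among them, and the other lean arrays lay lower, lean 3 lowest. The log2 difference of 2.0 missed the threshold (adjusted p = 0.0763) and passed it without lean 2, at 2.48 (adjusted p = 0.00303). Cidea, a lipid droplet protein, read 9.23, 9.25, 9.50, 9.38 and 9.30 with resveratrol, against 7.38, 9.17, 7.31, 7.94 and 8.0 in lean fat, with lean 2 just below the resveratrol arrays (adjusted p = 0.0796, and 0.00498 without lean 2).

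No member of the lists of fatty acid metabolism, thermogenesis or the respiratory chain was called with all arrays, where 0.289% of all clusters were. Outside these lists, Coq8a, of coenzyme Q synthesis, was called lower (limma adjusted p = 0.0426). Of the fatty acid and triglyceride synthesis list 10 of 16 were measured (median log2 difference -0.15), of fatty acid oxidation 13 of 14 (0.15), of the thermogenic list 9 of 12 (0.10) and of the respiratory chain 12 of 14 (0.27, all 12 above 0, where the median of the brightest bin was 0.15). Elovl6, a fatty acid elongase, read 7.11, 5.98, 5.75, 6.07 and 5.77 with resveratrol, against 3.66, 5.90, 3.85, 3.94 and 4.31 in lean fat. Resveratrol 1 was high in its group, and lean 2 lay within the resveratrol range. Its log2 difference of 1.80 had an adjusted p of 0.0558, and of 0.00126 without lean 2. Scd, the stearoyl-CoA desaturase, differed by 0.78 (adjusted p = 0.224), and Srebf1, a regulator of lipogenesis, by -0.86 (adjusted p = 0.308). Cpt1b, which carries fatty acids into mitochondria, read 5.44, 5.56, 5.46, 5.67 and 5.55 with resveratrol, against 5.09, 5.23, 3.59, 4.06 and 3.76 in lean fat. Here lean 1 and lean 2 lay near the resveratrol arrays and the other 3 lean arrays lower (log2 difference 1.19, adjusted p = 0.0566, and 0.00358 without lean 2). Ucp1, the uncoupling protein of brown fat, averaged 1.45 with resveratrol and 1.58 in lean fat, and the 5 brown fat markers had a median difference of 0.07 with none called.

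The lists of matrix, insulin signalling and clock genes held no calls with all arrays either. Of 14 extracellular matrix genes 12 were measured, with a median log2 difference of 0.39 and 5 higher at an unadjusted p under 0.05, against 7.93% of all clusters. All 12 lay above the median level of all clusters, where log2 differences ran higher (median 0.072, against 0.02 over all clusters). Lox, which crosslinks collagen, differed by 1.17, and Tgfb1, a fibrogenic growth factor, by 0.62. Both were called without lean 2 (adjusted p = 0.0210 and 0.0207), whereas the collagen chain Col1a1 differed by -0.05. Insulin signalling (10 of 12 measured) had a median of -0.07, with Irs1, the docking protein of the insulin receptor, at -0.73 (adjusted p = 0.238). The 8 measured circadian genes, of 13 listed, had a median of 0.13.

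Among the other genes that rose, Mrgprx2, a Mas-related G protein-coupled receptor, read 4.11, 4.67, 5.20, 4.23 and 4.29 with resveratrol, against 2.59, 3.84, 2.12, 2.62 and 2.35 in lean fat. The groups did not overlap, and Mrgprx2 rose 3.47-fold, with a log2 difference of 1.79 (SE 0.33, limma adjusted p = 0.0391). The largest rise among clusters with 1 symbol, found after the values were seen, was that of Cntn1, a neuronal adhesion protein, with 5.96, 5.73, 5.49, 5.86 and 6.77 under resveratrol, against 2.36, 6.06, 2.84, 2.91 and 2.27 in lean fat. Lean 2 read higher than 4 of the 5 resveratrol arrays, while the other lean arrays stayed below 3 log2 units. Cntn1 rose 6.38-fold with all arrays (adjusted p = 0.0426) and 10.3-fold without lean 2.

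Over the 30 genes named by the rule, the fold ran from 1.47 to 7.74 with all arrays and from 1.52 to 11.2 without lean 2, where adjusted p lay between 3.37e-05 and 0.0118. The fold was larger without lean 2 in all 30, which was largely set in advance, since lean 2 was picked for its likeness to the resveratrol arrays. The remaining genes named by size rose with no overlap between the groups. They were Glipr1 (2.83-fold), Slain2, a microtubule protein (2.77-fold), Dhrs9, a retinol dehydrogenase (2.51-fold), Megf9 (2.45-fold), the kinase Tnik (2.39-fold), and Cdc27, a subunit of the anaphase-promoting complex (2.37-fold). Mreg, melanoregulin, and Paqr7, a membrane progestin receptor, rose 2.27-fold and 2.25-fold, and Nrcam, an adhesion protein, by 1.14 on the log2 scale. Adjusted p over these 9 genes ran from 0.0391 to 0.0498. A second Slain2 cluster differed by 0.73 and was not called (adjusted p = 0.122).

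Of the genes that fell, Gprin3, a G protein-regulated inducer of neurite outgrowth, changed most. It read 3.50, 3.07, 2.75, 2.66 and 3.57 with resveratrol, against 5.51, 3.90, 7.95, 6.56 and 6.38 in lean fat, and the groups did not overlap. Gprin3 fell 7.74-fold, with a log2 difference of -2.95 (SE 0.48, limma adjusted p = 0.0391), and 11.2-fold without lean 2. Serum albumin (Alb) read 4.65, 4.32, 4.28, 4.40 and 4.33 with resveratrol, against 7.84, 5.05, 7.60, 7.27 and 7.17 in lean fat. Lean 2 was the lowest lean array but still above the resveratrol arrays, and Alb fell 6.02-fold, with a log2 difference of -2.59 (SE 0.40, limma adjusted p = 0.0391).

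Acvr1c, the activin receptor ALK7 of adipocytes, read 6.24, 5.57, 5.37, 5.45 and 5.46 with resveratrol, against 7.91, 6.20, 7.83, 7.31 and 7.15 in lean fat. Resveratrol 1 and lean 2 were nearly equal, and otherwise the groups were apart. Acvr1c fell 3.17-fold, with a log2 difference of -1.66 (SE 0.27, limma adjusted p = 0.0391). Frzb, a secreted Wnt inhibitor, read 4.24, 3.88, 3.59, 3.68 and 3.52 with resveratrol, against 5.72, 3.98, 7.29, 6.76 and 6.59 in lean fat, with lean 2 inside the resveratrol range, and fell 4.87-fold (adjusted p = 0.0391). Both were picked after their values were seen, since their arrays overlapped. Xbp1, a transcription factor of the unfolded protein response, read 7.54, 7.26, 7.56, 7.79 and 7.24 with resveratrol, against 8.73, 7.82, 8.86, 8.78 and 8.79 in lean fat. The other lean arrays lay close together above lean 2, and Xbp1 fell 2.17-fold, with a log2 difference of -1.12 (SE 0.20, limma adjusted p = 0.0391).

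The other genes that fell without overlap were Trhde, which degrades thyrotropin-releasing hormone (2.84-fold), Sytl5, a synaptotagmin-like protein (log2 difference -1.39), Slc1a3, a glutamate transporter (2.46-fold), and Coq8a, of coenzyme Q synthesis (2.13-fold). Ankef1 fell 2.11-fold, the translation initiation factor Eif4a2 1.88-fold, and Tpt1l2 1.47-fold, and the olfactory receptor Or6c66b had a log2 difference of -0.73.

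Mammary epithelium genes varied strongly among the lean arrays. Of 9 markers 7 were measured, none was called, 6 were lower with resveratrol at an unadjusted p under 0.05, against 5.55% of all clusters, and the median log2 difference was -2.61. Csn2, the milk protein beta-casein, read 1.93, 1.60, 1.52, 1.71 and 2.09 with resveratrol, against 1.61, 1.59, 7.94, 9.10 and 8.36 in lean fat. Kappa-casein (Csn3) read 2.26, 2.11, 2.0, 2.01 and 1.94 with resveratrol, against 3.60, 1.57, 10.80, 11.18 and 10.88 in lean fat. Lean 3, lean 4 and lean 5 were high in both caseins, and lean 1 and lean 2 lay far below them. Elf5, a transcription factor of milk-forming cells, followed the same arrays, with 1.72, 1.82, 1.89, 1.95 and 1.64 under resveratrol, against 1.98, 1.37, 6.75, 8.69 and 7.81 in lean fat (adjusted p = 0.261). High Csn3 was not confined to lean fat. It read 9.78 and 10.2 in obese 3 and obese 4, and 7.13, 8.29 and 7.72 in rosiglitazone 1, 3 and 5. The other obese and rosiglitazone arrays read 1.81 to 2.97. The median level of the list lay between 1.82 and 2.13 in resveratrol arrays and between 1.58 (lean 2) and 6.90 in lean arrays, with lean 1 at 2.21. Of the 130 uncalled clusters at least 4-fold lower with resveratrol, 29 had 1 gene symbol. Lean 3, lean 4 and lean 5 lay above both lean 1 and lean 2 in 42 of the 130. The share of all clusters with this order is not given here, so the 42 are only a description.

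This marker level moved with the comparison, and with it as a covariate limma called 0 clusters (lowest adjusted p 0.401, 3306 at an unadjusted p under 0.05). The obese and rosiglitazone arrays, among which the level also varied, entered that fit. The part of mammary epithelium in the calls was not tested further. Without lean 2, Csn2, Krt19, Epcam and Wap were called lower (adjusted p = 0.0181, 0.0205, 0.0354 and 0.0260), where 0.763% of all clusters were. Markers of muscle, skin, endothelium, fibroblasts and blood held no calls. The 6 measured skeletal muscle markers of 13 had a median log2 difference of -0.26, with lean 3 highest, the 8 skin epithelium markers of 12 had -0.16, and the 6 endothelial markers of 8 had 0.13. The 7 fibroblast and progenitor markers of 8 had a median of 0.39, but ran from -3.39 to 1.23. At an unadjusted p under 0.05, 2 of them were higher and 1 lower, against 7.93% and 5.55% of all clusters. The 1 measured blood marker of 5, Slc4a1, differed by 0.69.

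**Figure D5:**
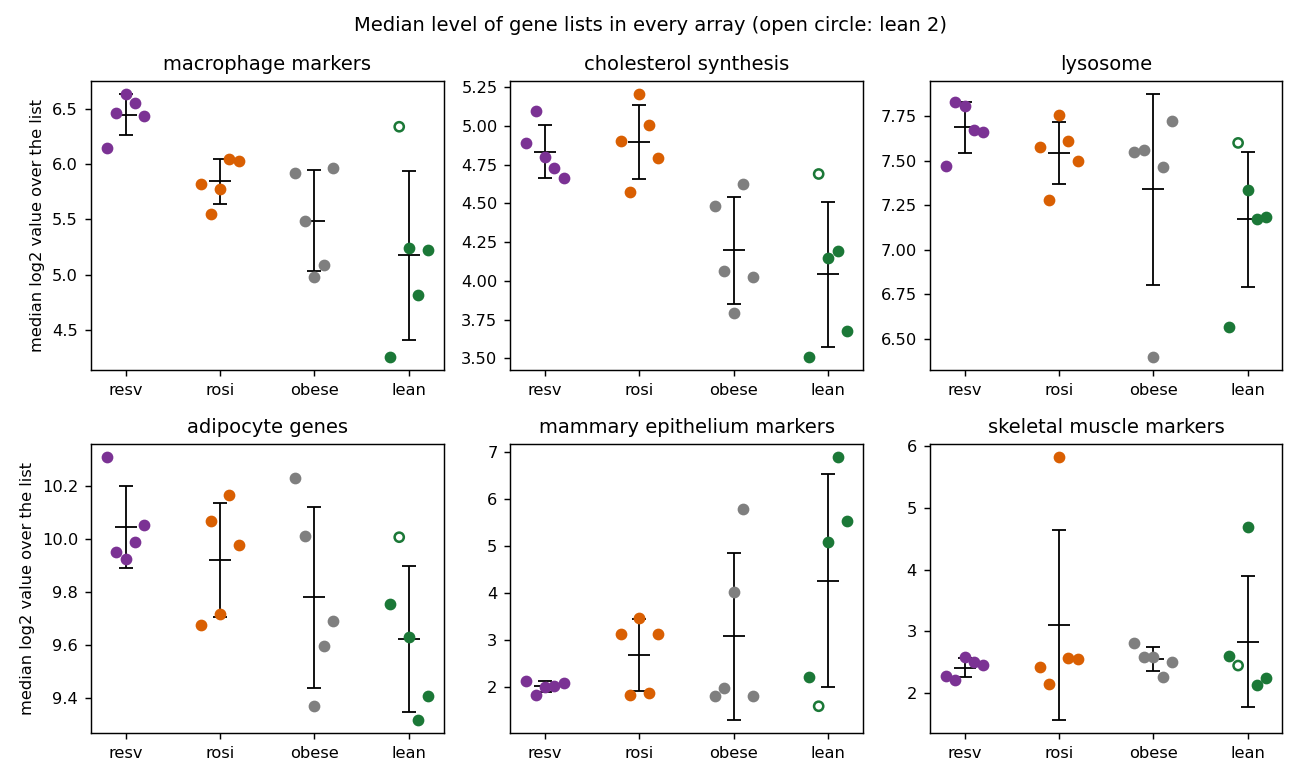
Median log2 value over the measured genes of 6 lists (y axis) in every array of the resveratrol (resv), rosiglitazone (rosi), obese and lean groups; bars give mean and SD of the 5 arrays, and the open circle is lean 2. Macrophage markers lie between 6.15 and 6.64 with resveratrol and between 4.25 and 6.34 in lean fat. Mammary epithelium markers are high in lean 3, 4 and 5, and also in obese 3 (4.02) and obese 4 (5.79).

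The 106 called clusters were also compared directly with the other groups, in contrasts that share the resveratrol arrays. Between resveratrol and obese fat, limma called 0 of all 36685 clusters (0%), and so 0 of the 106 (lowest adjusted p 0.0563, 59 of the 106 and 9234 of all clusters at an unadjusted p under 0.05). Between resveratrol and rosiglitazone fat it called 12 of the 106, against 2.20% of all clusters, of which 7 were higher and 5 lower with resveratrol. Alb read 4.65, 4.32, 4.28, 4.40 and 4.33 with resveratrol, against 9.74, 10.08, 9.46, 9.09 and 9.60 with rosiglitazone, and obese arrays read 5.04, 4.72, 3.60, 4.50 and 3.45. Every rosiglitazone array exceeded every lean and resveratrol array, and the log2 difference, resveratrol minus rosiglitazone, was -5.20 (limma adjusted p = 2.54e-07). Coq8a was also lower with resveratrol than with rosiglitazone, by -1.42 on the log2 scale (adjusted p = 0.000705), as was Cyp4b1, a cytochrome P450, by -1.74 (adjusted p = 0.00533), although Cyp4b1 rose 3.16-fold against lean fat.

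Mrgprx2 averaged 4.50 with resveratrol, against 2.50 with rosiglitazone, 4.12 in obese and 2.71 in lean fat. The difference from rosiglitazone was 2.0 (adjusted p = 0.00150). Cntn1 averaged 5.96 with resveratrol, against 3.60 with rosiglitazone, 4.67 in obese and 3.29 in lean fat, a difference from rosiglitazone of 2.36 (adjusted p = 0.0192). Serpinb8, a serine protease inhibitor, Hgf, hepatocyte growth factor, Adgre4, an adhesion receptor of myeloid cells, and Tmem52b were higher with resveratrol than with rosiglitazone by 1.26, 0.95, 1.44 and 1.42. For most of the 106, however, neither direct contrast was called, and a missed threshold does not show that the groups were alike.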

How the data were processed

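Total RNA of frozen subcutaneous tissue, 100 ng per sample, was hybridised to Rat Gene 2.1 ST arrays, per the labels. The deposited log2 values were made with RMA, per the submitters' processing notes; its software and settings, the strips and the scan dates were not given in the sources. The values were used unchanged. The 4 groups were fitted together over 20 arrays in limma 3.58.1 (lmFit, eBayes; R 4.3.3), with Benjamini-Hochberg adjustment over 36685 clusters. The median SE was 0.19 and the median 95% confidence interval reached 0.39 to either side. The number of arrays limits the precision. Clusters were named from GEO's platform annotation, matched to RefSeq by gene ID. The comparison, genes and 20 lists were chosen with earlier results of these data known; 2 more lists (cholesterol synthesis, lysosome) followed after the values were seen. Named genes were up to 15 rises and 15 falls with 1 symbol, adjusted p under 0.05, no overlap between arrays and a brighter mean above the median level, plus called list members; all other genes were picked after their values were seen. The fit was tested on simulated data. Alternatives were other normalisations, filters on low values, priors, array weights, a fit of only these groups, the replicate number as a block, covariates, a 1.5-fold minimum and leaving out each array. The mammary marker covariate was chosen after seeing the data. Equal replicate numbers did not pair the arrays.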

Additional observations from a re-analysis of the deposited data

Results flagged for a closer look

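Among 146 sets of 5 arrays (genes named above and gene lists, in resveratrol and in lean fat), 12 held an array that Dixon's test at the 95% level set apart. In unselected, independent sets chance would give about 7.3, or 1 in 20. These sets share arrays, and most of the genes were picked for their difference between the groups, so 12 cannot be weighed against 7.3. Lean 2 was that array in 8 of the 12. It lay on the resveratrol side of the other lean arrays for Olr1 (2.72), Mreg (3.85), Alb (5.05), Xbp1 (7.82), Cntn1 (6.06), Ccl9 (3.76) and Elovl6 (5.90), and it had the lowest median of the thermogenic list in lean fat (1.91). Lean 3 had the highest median of the skeletal muscle markers (4.70). Resveratrol 1 was apart for Acvr1c (6.24) and Elovl6 (7.11), and resveratrol 2 for Dapp1 (5.24).

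The direct contrast of the treated groups differed for 3 genes named by the rule: Alb (log2 difference, resveratrol minus rosiglitazone, -5.20, limma adjusted p = 2.54e-07), Coq8a (-1.42, adjusted p = 0.000705) and Mrgprx2 (2.0, adjusted p = 0.00150). The causes of these differences were not tested.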

How the results depend on the processing

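The count of 106 calls (70 higher, 36 lower; 99 above the median level and 7 below it) depended on the setting. It was 185 (126 higher, 59 lower; 178 above the median level) with quantile normalisation, 273 (194 and 79) over clusters above the median level, 1422 (876 and 546; 1230 above the median level and 192 below it) with array weights, and 300 (207 and 93; 276 and 24) with each array's SD as a covariate. It was 0 in each direction and at both levels with arrays centred on their median, in a fit of only the resveratrol and lean arrays, and with the mammary marker level as a covariate. Leaving out 1 array gave 0 to 1051 calls (0 to 771 higher, 0 to 280 lower; 0 to 940 above the median level, 0 to 111 below it). By array, leaving out obese 1 to obese 5 gave 127, 70, 390, 33 and 78, and leaving out rosiglitazone 1 to rosiglitazone 5 gave 40, 52, 27, 35 and 0. The replicate block gave 92 calls (57 higher, 35 lower), of which 64 were among the 106; deviations of same-numbered arrays correlated at r between -0.13 and 0.09, so the numbers were not taken to pair the arrays. Of the 106, 23 were called against rosiglitazone with array weights and 23 with the SD covariate (7 to 20 with 1 array left out). Against obese fat 1 was called with quantile normalisation, 6 with centring, 6 above the median level, and 0 to 27 with 1 array left out. The median log2 difference of all clusters was 0.077 with centring and 0.072 above the median level, and that of the respiratory chain list 0.17 with the SD covariate and 0.12 with the mammary covariate. With 1 array left out, the clusters without overlap numbered 1575 to 3731, the difference in SD within an array was 0.0071 to 0.038 and the median of the skin markers -0.29 to -0.12. The causes were not tested. None of the 49 genes followed through the alternatives (the 30 named by the rule and 19 others) changed direction. This was largely set in advance, since most were picked for large differences. All 30 named by the rule lost their call in every setting that called 0 clusters. Precision was limited by 5 arrays a group: the 95% interval of the difference lay within 2-fold either way for 84.1% of clusters, and within 1.5-fold for 49.8%.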
